A study of Homo sapiens with 36 samples.

Results

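The genes described here are the factors that start and carry out copying of the chromosomes: 39 genes of the replication origin, the replicative polymerases and the fork, chosen by symbol in the probe annotation out of 20046 genes with a probe. They have 59 probes, of which 52 were detected, and 38 of the 39 genes could be tested, out of 12360 tested genes in all. CLSPN, the checkpoint mediator claspin, has 1 probe, which was detected on none of the 36 arrays, so it has no values here. The arrays are single-colour Illumina bead arrays of total RNA from 3 established human prostate cancer lines, 22Rv1, DU145 and PC-3, collected before any irradiation. In each line there were 4 groups of 3 arrays: 1 µM vorinostat for 24 h together with hypoxia at 0.2% oxygen for 24 h, vorinostat in normoxia, hypoxia with solvent, and normoxia with solvent. Vorinostat inhibits histone deacetylases. The sample titles say solvent where the characteristics say untreated; these arrays are called solvent arrays here. The labels describe DU145 as radiation resistant, and the study's design text calls PC-3 and 22Rv1 radiosensitive; its stated aim was to find expression changes that go with radiosensitisation by the drug. Nothing in the labels says that the 3 arrays of a group came from separate cultures, so p-values measure the spread between these arrays, which may be technical.

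Replication begins when the origin recognition complex (ORC1 to ORC6) and CDC6 and CDT1 load the MCM helicase onto DNA, which geminin (GMNN) limits to once a cycle. The kinase CDC7 with DBF4 then fires the origin, polymerase alpha with primase lays primers, the clamp PCNA is loaded by RFC and holds polymerases delta and epsilon, and FEN1 and LIG1 join the fragments of the lagging strand. RPA coats single-stranded DNA, TIMELESS and TIPIN steady the fork, and chromatin assembly factor 1 deposits histones behind it. Many of these genes are known to be transcribed in a wave at the entry into S phase under E2F transcription factors, which the RB proteins restrain.

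The promoters of 8 members are shown because they include 5 of the 6 largest falls with vorinostat in 22Rv1 (LIG1, CHAF1B, TIMELESS, CDT1 and POLE2), POLA2, which was called lower in that line and not in the others, and ORC2 and RFC1, which were not called lower in any line. Here called means an adjusted p below 0.05 in the test described below. Each is the RefSeq sequence of GRCh38.p14 from 250 bases before to 50 bases after the annotated start, read 5′ to 3′ on the strand of the gene. Capitals mark each match to the E2F letters TTTGGCGC, TTTCCCGC, TTTCGCGC or TTTGCCGC on either strand.
LIG1 (chr19:48170295-48170594, minus strand): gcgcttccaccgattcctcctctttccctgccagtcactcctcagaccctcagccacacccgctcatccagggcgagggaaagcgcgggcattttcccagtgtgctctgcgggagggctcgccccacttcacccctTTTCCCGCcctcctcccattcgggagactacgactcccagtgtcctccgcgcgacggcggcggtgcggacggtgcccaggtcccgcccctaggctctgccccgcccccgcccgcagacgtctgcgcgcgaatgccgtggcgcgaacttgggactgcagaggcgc
CDT1 (chr16:88803539-88803838, plus strand): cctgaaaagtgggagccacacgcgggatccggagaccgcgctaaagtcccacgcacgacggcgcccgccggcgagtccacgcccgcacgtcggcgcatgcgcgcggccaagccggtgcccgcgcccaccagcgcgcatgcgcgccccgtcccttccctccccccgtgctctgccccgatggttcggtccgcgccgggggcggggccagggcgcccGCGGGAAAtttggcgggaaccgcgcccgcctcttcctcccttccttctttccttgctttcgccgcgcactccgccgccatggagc
POLE2 (chr14:49688165-49688464, minus strand): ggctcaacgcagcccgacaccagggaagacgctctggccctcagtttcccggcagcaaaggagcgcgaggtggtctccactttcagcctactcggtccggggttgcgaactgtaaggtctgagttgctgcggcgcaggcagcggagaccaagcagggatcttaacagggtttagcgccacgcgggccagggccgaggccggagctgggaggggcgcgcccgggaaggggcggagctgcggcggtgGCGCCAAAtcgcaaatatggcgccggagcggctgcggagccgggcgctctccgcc
POLA2 (chr11:65261712-65262011, plus strand): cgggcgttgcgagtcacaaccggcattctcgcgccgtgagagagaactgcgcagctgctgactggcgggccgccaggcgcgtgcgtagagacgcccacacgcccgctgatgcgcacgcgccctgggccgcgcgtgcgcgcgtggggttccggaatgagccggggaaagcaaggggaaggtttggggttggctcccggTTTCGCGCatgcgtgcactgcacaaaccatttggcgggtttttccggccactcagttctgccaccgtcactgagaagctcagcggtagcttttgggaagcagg
CHAF1B (chr21:36385142-36385441, plus strand): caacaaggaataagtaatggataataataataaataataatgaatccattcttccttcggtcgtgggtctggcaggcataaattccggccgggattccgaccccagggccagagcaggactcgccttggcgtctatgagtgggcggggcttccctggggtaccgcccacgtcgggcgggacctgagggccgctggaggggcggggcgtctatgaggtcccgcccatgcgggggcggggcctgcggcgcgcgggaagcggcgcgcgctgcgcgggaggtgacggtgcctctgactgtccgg
TIMELESS (chr12:56449377-56449676, minus strand): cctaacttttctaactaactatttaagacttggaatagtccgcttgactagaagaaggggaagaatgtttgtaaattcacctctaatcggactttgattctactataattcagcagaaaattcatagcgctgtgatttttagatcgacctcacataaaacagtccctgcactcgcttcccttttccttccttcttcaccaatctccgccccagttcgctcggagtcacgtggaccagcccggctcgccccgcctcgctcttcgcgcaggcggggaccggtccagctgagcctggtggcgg
ORC2 (chr2:200963611-200963910, minus strand): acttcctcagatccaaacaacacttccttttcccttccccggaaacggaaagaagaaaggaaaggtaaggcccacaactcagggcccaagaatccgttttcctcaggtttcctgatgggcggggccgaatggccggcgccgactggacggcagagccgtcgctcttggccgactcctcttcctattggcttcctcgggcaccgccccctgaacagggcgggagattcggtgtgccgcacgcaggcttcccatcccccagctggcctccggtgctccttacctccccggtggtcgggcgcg
RFC1 (chr4:39366313-39366612, minus strand): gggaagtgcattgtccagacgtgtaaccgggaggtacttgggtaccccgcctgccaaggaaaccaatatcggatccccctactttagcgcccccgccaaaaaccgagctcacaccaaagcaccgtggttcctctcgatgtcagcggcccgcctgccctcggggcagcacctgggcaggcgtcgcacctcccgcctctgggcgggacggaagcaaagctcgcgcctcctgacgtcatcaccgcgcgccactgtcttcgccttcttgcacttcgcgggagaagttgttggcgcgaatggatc

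The match lies 114 bases before the start in LIG1, 35 bases before it in CDT1, 5 bases before it in POLE2 and 53 bases before it in POLA2, counted to its first base on the printed strand. The windows of CHAF1B, TIMELESS, ORC2 and RFC1 hold none of these letters. Windows were given for 35 of the 39 members, 8 of which have more than 1, and DSCC1, POLD3, RPA2 and RPA3 have none in the table used. The letters occur in 14 of the 44 member windows (31.8%), against 3.31% of 35116 windows of all genes. The 14 members are CDC6, CDC7, CDT1, CLSPN, GMNN, LIG1, ORC3, PCNA, POLA1, POLA2, POLE, POLE2, RFC3 and TIPIN. Leaving out CLSPN, which was not tested, they are grouped by the number of lines in which the vorinostat test below called a member lower. They are 6 of 13 members for 3 lines, 4 of 10 for 2 lines, 3 of 5 for 1 line and 0 of 6 for none. ORC6, whose window holds no match, counts under none by its brighter probe, while its dimmer probe was called lower in each line. CCAAT, on either strand, occurs in 43.2% of the member windows and 34.6% of all windows, and the letters TTTGAA or TTCGAA, which mark many late cell cycle genes, in 4.55% and 16.4%. A match is a description of the letters and not a measured site of binding.

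Signals were background corrected, quantile normalized and put on the log2 scale, and probes were used that passed a detection p of 0.01 on 3 or more of the 36 arrays. All 12 group means were fitted in one limma model, and a gene was called where its Benjamini-Hochberg adjusted p over the 12360 genes was below 0.05. Between 14242 and 16900 of 47323 probes were detected on an array (30.1% to 35.7%), arrays of a group correlated at 0.985 to 0.995, and no array stood apart as a whole. The epithelial markers KRT8, KRT18, EPCAM and CDH1 were detected on 12 of 12 arrays of each line. The prostate gene HOXB13 was detected on 12 of 12 arrays of 22Rv1 and of PC-3 and on none of DU145, and KLK3 on none of the 36. Of the markers of other cell types, PTPRC, CD3E, VWF, CDH5 and COL1A2 were detected on no array, while PECAM1 was detected on all 12 PC-3 arrays, COL1A1 on 4, 5 and 12 and CD14 on 6, 6 and 9 of the 12 arrays of 22Rv1, DU145 and PC-3.

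Vorinostat lowered replication genes in all 3 lines, and most of them in 22Rv1. Averaged over both oxygen levels, 31 of 38 members were called lower in 22Rv1 and 0 higher, where 22.4% of all tested genes were called lower and 22.9% higher, and the median log2 change of the members was -0.80. In DU145, 19 members were called lower and 4 higher, against 24.7% and 27.9% of all genes, with a median of -0.22. In PC-3, 22 were called lower and 1 higher, against 19.7% and 19.8% of all genes, with a median of -0.29. Called lower in all 3 lines were 15 members (7.88% of all genes were): ORC1, CDT1, PCNA, POLA1, POLD1, POLD3, POLE, POLE3, FEN1, LIG1, RPA2, CHAF1A, TIMELESS, TIPIN and WDHD1. In these bulk samples, fewer cells in S phase and less RNA of these genes in each cell cannot be told apart.

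**Figure D1:**
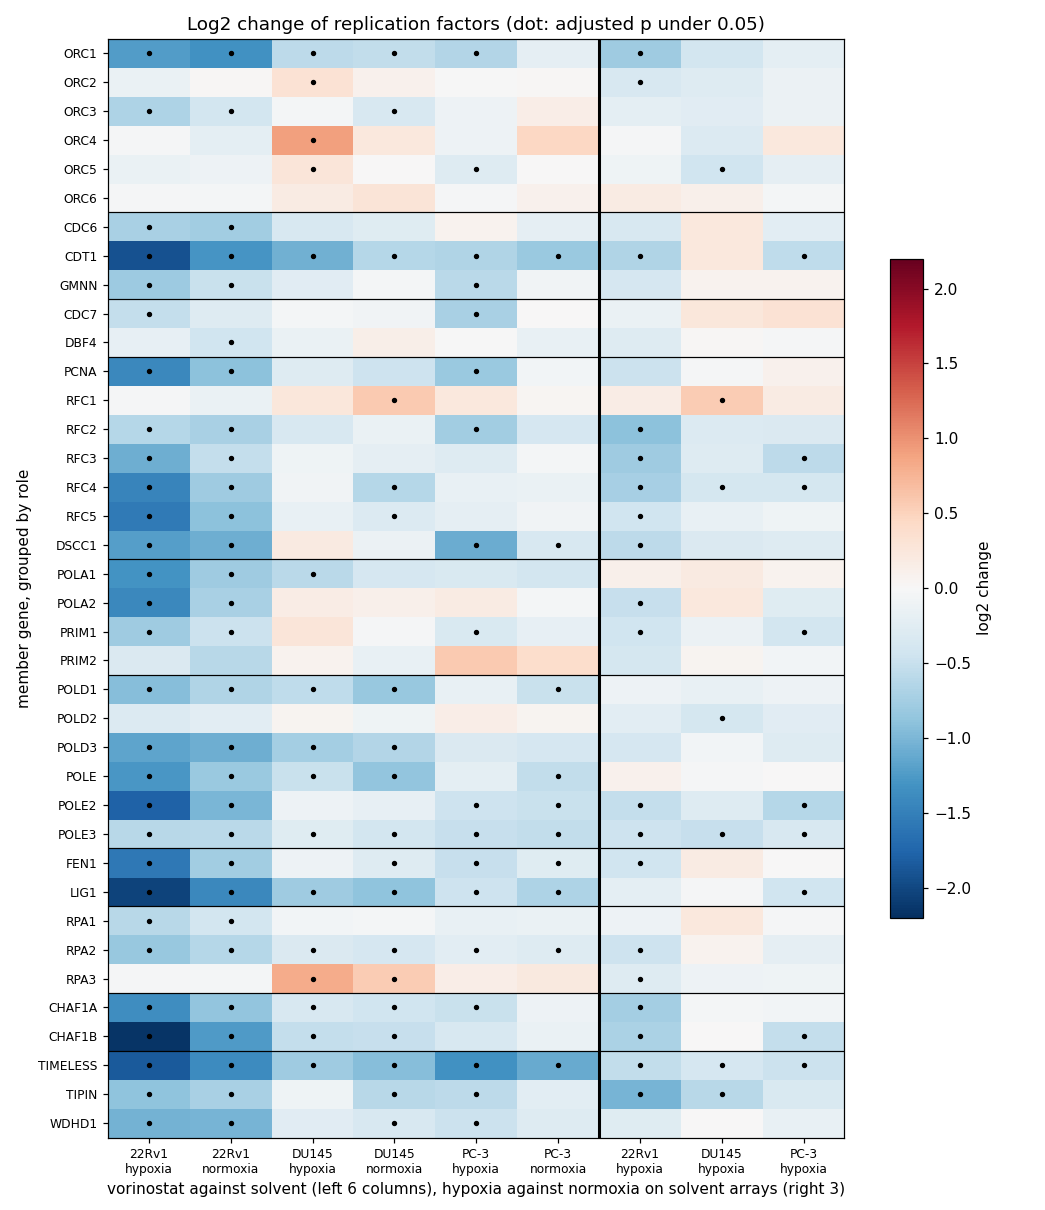
Log2 change of the 38 tested members (rows, grouped by role) with vorinostat against solvent in each line and oxygen level (left 6 columns) and with hypoxia against normoxia on solvent arrays (right 3 columns); blue is lower, red is higher, and a dot marks an adjusted p below 0.05. The 22Rv1 columns hold 29 members called lower with vorinostat at each oxygen level, and the PC-3 normoxia column holds 10.

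At single oxygen levels, 29 members were called lower in 22Rv1 both in hypoxia and in normoxia, against 16.9% and 14.9% of all genes. In DU145 the count was 12 in hypoxia (19.2% of all genes) and 17 in normoxia (18.6%). In PC-3 it was 18 in hypoxia (13.8%) and 10 in normoxia (13.4%). The members called lower in all 6 combinations of line and oxygen level were CDT1, POLE3, LIG1, RPA2 and TIMELESS, 5 genes, where 2.90% of all genes were. With the arrays scaled to a common median instead, the members called in either direction in DU145 were 12 in normoxia in place of 19 and 8 in hypoxia in place of 16. Fitting the 12 PC-3 arrays alone called 6 in normoxia in place of 10. The shares of all genes called under these settings are not given here. Whether calls fell more among the members than among all genes is therefore not shown.

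**Figure D2:**
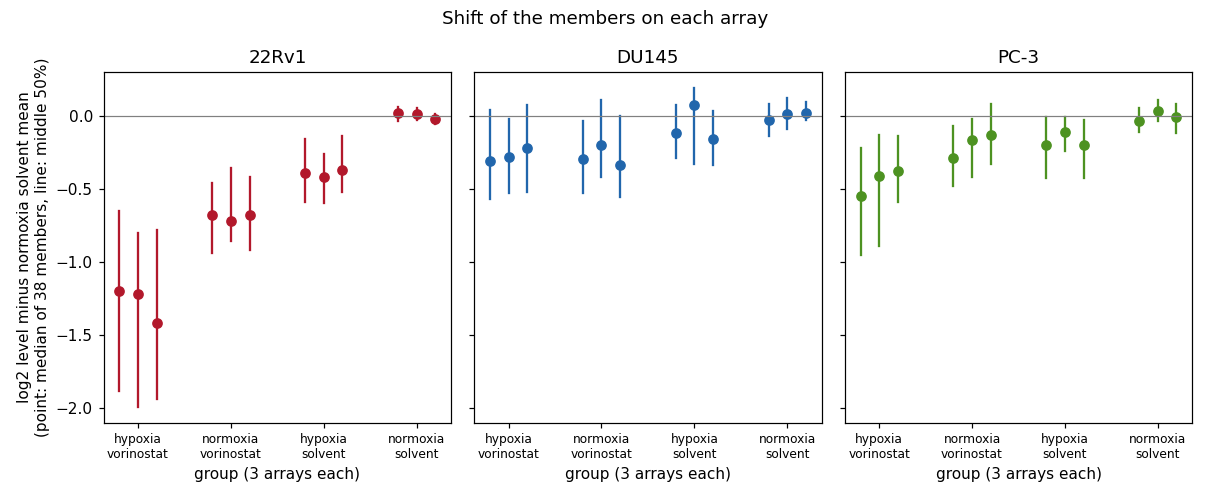
Median over the 38 members of the log2 level minus the mean of the 3 normoxia solvent arrays of the line (points, 1 per array; vertical lines span the middle 50% of members), for the 4 groups of each line. In 22Rv1 the 3 arrays with hypoxia and vorinostat lie at -1.20, -1.22 and -1.42, below every other array of that line.

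Taken array by array against the mean of the normoxia solvent arrays of the line, the median member stood at -1.20, -1.22 and -1.42 on the 22Rv1 arrays with hypoxia and vorinostat, at -0.68, -0.72 and -0.68 with vorinostat in normoxia, and at -0.39, -0.42 and -0.37 in hypoxia with solvent. These 3 groups did not overlap. In DU145 the vorinostat arrays lay between -0.20 and -0.34 at both oxygen levels, and the hypoxia solvent arrays between -0.16 and 0.07. In PC-3 they lay at -0.55, -0.41 and -0.38 with hypoxia and vorinostat, at -0.29, -0.17 and -0.13 with vorinostat in normoxia, and at -0.20, -0.11 and -0.20 in hypoxia with solvent, so the last 2 groups overlapped.

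Within the origin recognition complex, which marks the sites where replication can start, ORC1 was the subunit called lower in every line. In 22Rv1, ORC1 stood at a log2 signal of 4.58, 5.10 and 5.08 on the vorinostat arrays in hypoxia, against 5.99, 6.12 and 6.33 on the solvent arrays in hypoxia. The normoxia values were 5.48, 5.77 and 5.55 with vorinostat, against 6.95, 6.96 and 6.89 with solvent. All 6 vorinostat arrays lay below all 6 solvent arrays. The change over both oxygen levels was -1.28 ± 0.13 on the log2 scale (SE; limma adjusted p = 1.95e-09). On the hypoxia vorinostat arrays of 22Rv1 the probe was not well above background, so the fall there was at least 1.90-fold: for such a group the fold is taken against the higher of the probe's own signal and the lowest signal detected on the array. ORC1 changed by -0.56 ± 0.13 in DU145 (SE; limma adjusted p = 0.000605) and by -0.42 ± 0.13 in PC-3 (adjusted p = 0.0114), with overlap between vorinostat and solvent arrays in both.

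The other subunits gave fewer calls or, for ORC6, unclear ones. ORC3 was called lower in 22Rv1, by -0.55 ± 0.09 (SE; limma adjusted p = 4.49e-06), with -0.20 in DU145 and 0.01 in PC-3. ORC5 was called in none of the 3 lines, at -0.13 in 22Rv1, 0.13 in DU145 and -0.14 in PC-3. ORC2 and ORC4 were called higher in DU145. ORC4, a dim probe detected on 22 of the 36 arrays, stood there at 5.84, 5.68 and 5.91 with vorinostat in hypoxia, against 4.90, 4.93 and 4.87 with solvent in hypoxia. On the normoxia arrays it stood at 5.11, 5.67 and 5.52 with vorinostat, against 4.73, 5.68 and 5.19 with solvent. The hypoxia groups were apart and the normoxia groups overlapped. The change over both levels was 0.57 ± 0.12 (SE; limma adjusted p = 0.000272), and in hypoxia, where the solvent arrays were not well above background, the rise was at least 1.30-fold.

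ORC2 in DU145 measured 8.60, 8.60 and 8.68 with vorinostat in hypoxia, against 8.34, 8.24 and 8.38 with solvent in hypoxia. Its levels in normoxia were 8.64, 8.75 and 8.71 with vorinostat, against 8.35, 8.68 and 8.77 with solvent, where the groups overlapped. The rise over both levels was 0.20 ± 0.08 (SE; limma adjusted p = 0.0287), and it lost its call without the first normoxia solvent array of DU145, at 0.14 with an adjusted p of 0.126, and under other settings given in the closing part. ORC6 has 2 detected probes that disagree. The brighter one, which stands for the gene, was called in no line, at -0.03 ± 0.10 in 22Rv1, 0.23 ± 0.10 in DU145 and 0.04 ± 0.10 in PC-3 (SE). The dimmer one was called lower in each line over all detected probes, at -1.37 ± 0.11 in 22Rv1 (SE; limma adjusted p = 3.01e-11), -0.35 ± 0.11 in DU145 (adjusted p = 0.0126) and -0.30 ± 0.11 in PC-3 (adjusted p = 0.0387).

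In 22Rv1 the dimmer ORC6 probe read 6.59, 6.52 and 6.76 with vorinostat in hypoxia, against 8.47, 8.33 and 8.54 with solvent in hypoxia. Under normoxia the signal was 7.70, 7.95 and 7.85 with vorinostat, against 8.53, 8.88 and 8.84 with solvent. On the same arrays the brighter probe stayed between 12.84 and 13.28. The files do not say which transcripts the probes match, so the direction of ORC6 is uncertain here.

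**Figure D3:**
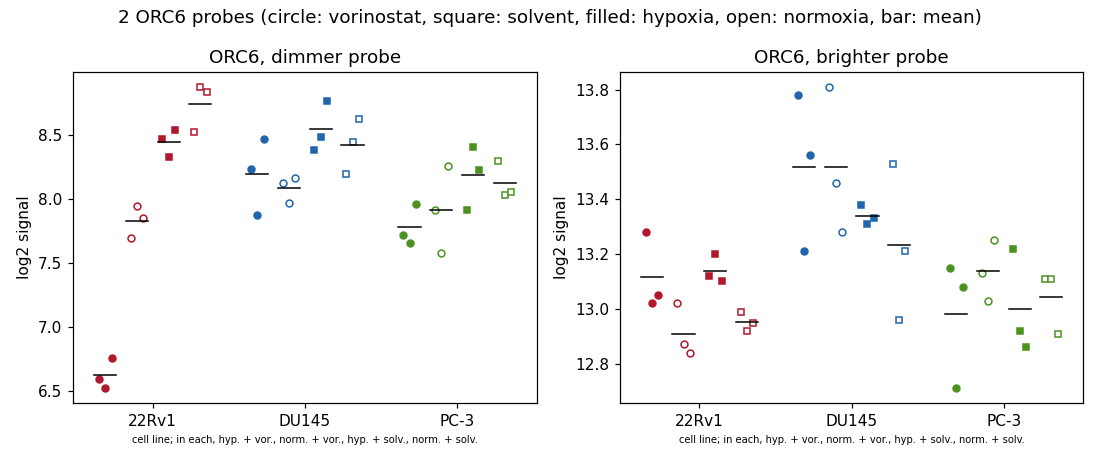
Log2 signal of the 2 detected ORC6 probes on each of the 36 arrays, the dimmer probe left and the brighter right, by line and group (circles vorinostat, squares solvent, filled hypoxia, open normoxia, bars the mean of 3 arrays). The dimmer probe drops on the 22Rv1 vorinostat arrays while the brighter one does not.

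Among the licensing factors, CDT1, which brings the helicase to the origin, was called lower in all 6 combinations of line and oxygen level. In 22Rv1 its log2 signal was 7.04, 7.39 and 6.98 with vorinostat in hypoxia, against 9.05, 8.98 and 9.11 with solvent in hypoxia. The arrays in normoxia read 8.34, 8.42 and 8.48 with vorinostat, against 9.68, 9.83 and 9.63 with solvent. The groups did not overlap, and the change over both levels was -1.60 ± 0.12 (SE; limma adjusted p = 1.30e-12), a 3.04-fold fall.

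In DU145, CDT1 measured 8.25, 8.45 and 8.35 with vorinostat in hypoxia, against 9.26, 9.65 and 9.34 with solvent in hypoxia. In normoxia it measured 8.36, 8.71 and 8.60 with vorinostat, against 8.84, 9.36 and 9.32 with solvent. All vorinostat arrays lay below all solvent arrays, and the change was -0.84 ± 0.12 (SE; limma adjusted p = 4.21e-07). In PC-3 the values were 6.48, 6.67 and 6.86 with vorinostat in hypoxia, against 7.67, 7.19 and 7.14 with solvent in hypoxia. The PC-3 normoxia values were 7.12, 7.35 and 6.79 with vorinostat, against 7.80, 7.65 and 8.22 with solvent. Within each oxygen level the PC-3 groups were apart, and the change was -0.73 ± 0.12 (SE; limma adjusted p = 7.53e-06).

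CDC6, the partner of CDT1 in loading the helicase, was dim, with detection on 11 of 36 arrays. It was called lower in 22Rv1 and DU145 (-0.75 and -0.32) and not in PC-3 (-0.07), and against background its fall in 22Rv1 was at least 1.10-fold. GMNN, the inhibitor of CDT1, was called lower in 22Rv1 by -0.64 ± 0.11 (SE; limma adjusted p = 9.86e-06) and in PC-3 by -0.34 ± 0.11 (adjusted p = 0.0129), with -0.15 in DU145. Geminin in PC-3 included an array that stood apart: the third with vorinostat in normoxia read 8.83, against 8.06 and 8.17 on the other two, and the same array was high for PCNA (10.96), DSCC1 (9.10) and TIPIN (7.25). Without that array the count in PC-3 over both oxygen levels was 22 lower and 1 higher as with it, but not of the same genes throughout: RPA1 and RPA3 lost their calls, while RFC5 (-0.19, limma adjusted p = 0.0405) was then called lower and PRIM2 (0.67, adjusted p = 0.00487) higher.

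Of the origin firing kinase, the catalytic subunit CDC7 was called lower in 22Rv1 (-0.40 ± 0.10, SE; limma adjusted p = 0.00155) and PC-3 (-0.35 ± 0.10; adjusted p = 0.0058) and stood at -0.06 in DU145. Its activator DBF4 was detected on 3 of 36 arrays. It was called lower in 22Rv1 at -0.31 ± 0.11 (SE; limma adjusted p = 0.0227), but its vorinostat arrays there were not above background, and no fold is given.

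The sliding clamp PCNA fell in all 3 lines, by -1.17 ± 0.13 in 22Rv1 (SE; limma adjusted p = 1.92e-08), -0.37 ± 0.13 in DU145 (adjusted p = 0.0217) and -0.44 ± 0.13 in PC-3 (adjusted p = 0.00902). Its 2 detected probes gave the same call only in 22Rv1. In 22Rv1 PCNA measured 8.85, 8.79 and 9.09 with vorinostat in hypoxia, against 10.36, 10.31 and 10.33 with solvent in hypoxia. The normoxia values were 9.71, 9.99 and 10.00 with vorinostat, against 10.77, 10.79 and 10.86 with solvent, with no overlap.

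The clamp loader subunits divided. RFC1, the large subunit, was called lower in no line and higher in DU145, while RFC2, RFC3, RFC4 and RFC5 were all called lower in 22Rv1, by -0.68, -0.80, -1.12 and -1.23. In DU145 RFC1 read 9.40, 9.04 and 9.25 with vorinostat in hypoxia, against 8.96, 9.21 and 8.76 with solvent in hypoxia. On the normoxia arrays it stood at 9.06, 8.94 and 8.97 with vorinostat, against 8.56, 8.25 and 8.46 with solvent. The normoxia groups were apart and the hypoxia groups overlapped, with a change over both of 0.41 ± 0.09 (SE; limma adjusted p = 0.000375). The second RFC1 probe was not called in DU145, at 0.19 ± 0.10 (SE; limma adjusted p = 0.147 over all detected probes), so the rise rests on the brighter probe. RFC4 and RFC5 were also called lower in DU145 (-0.34 and -0.23), and RFC2 in PC-3. Other probes of these genes gave further calls over all detected probes. They were RFC2 in DU145 (-0.33, limma adjusted p = 0.026), RFC4 in PC-3 (-0.23, adjusted p = 0.0189) and RFC3 in PC-3 (-0.38, adjusted p = 0.00552). The remaining RFC3 probe was not called in PC-3 (-0.20), so the lines in which these subunits were called depend on the probe.

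RFC2 in PC-3 measured 6.88, 6.84 and 7.25 with vorinostat in hypoxia, against 7.64, 7.97 and 7.65 with solvent in hypoxia. Its levels in normoxia were 7.62, 7.55 and 7.93 with vorinostat, against 8.38, 7.90 and 7.93 with solvent. The hypoxia groups were apart, the normoxia groups overlapped, and the change over both was -0.57 ± 0.11 (SE; limma adjusted p = 0.000181). DSCC1 belongs to an alternative clamp loader that acts in sister chromatid cohesion. In PC-3 it measured 7.61, 7.83 and 7.73 with vorinostat in hypoxia, against 8.79, 8.79 and 8.88 with solvent in hypoxia. Under normoxia the signal was 8.58, 8.54 and 9.10 with vorinostat, against 9.04, 9.02 and 9.25 with solvent, overlapping through the third vorinostat array. The change was -0.73 ± 0.09 in PC-3 (SE; limma adjusted p = 1.80e-07) and -1.15 ± 0.09 in 22Rv1 (adjusted p = 1.13e-11), with 0.03 in DU145.

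Of polymerase alpha and primase, the catalytic subunit POLA1 was called lower in each line, by -1.05 in 22Rv1, -0.48 in DU145 and -0.37 in PC-3. POLA2, the accessory subunit, was called lower in 22Rv1 and in neither of the other lines, a difference tested below. There it measured 7.81, 7.76 and 7.77 with vorinostat in hypoxia, against 9.22, 9.08 and 9.25 with solvent in hypoxia. The arrays in normoxia read 9.09, 8.95 and 8.89 with vorinostat, against 9.77, 9.65 and 9.65 with solvent. Within each oxygen level the groups were apart, and the change was -1.06 ± 0.07 (SE; limma adjusted p = 5.73e-14). POLA2 stood at 0.13 ± 0.07 in DU145 and 0.07 ± 0.07 in PC-3 (SE), neither called. PRIM1, the catalytic primase subunit, was called lower in 22Rv1 (-0.63) and PC-3 (-0.26). PRIM2, the large primase subunit, was called in no line, at -0.46, -0.04 and 0.48 in 22Rv1, DU145 and PC-3, each with an SE of 0.20.

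Polymerases delta and epsilon, which extend the primers on the 2 strands, have 6 subunits among the members: 6 were called lower in 22Rv1, 4 in DU145 and 5 in PC-3, and 0 were called higher. POLD1, the catalytic subunit of delta, measured 6.86, 6.78 and 6.50 with vorinostat in hypoxia in DU145, against 7.13, 7.51 and 7.19 with solvent in hypoxia. In normoxia it measured 6.41, 6.56 and 6.86 with vorinostat, against 7.41, 7.45 and 7.47 with solvent. The groups did not overlap, and the change was -0.70 ± 0.11 (SE; limma adjusted p = 1.77e-06). POLD3, an accessory subunit of delta, measured 6.06, 6.31 and 5.98 with vorinostat in hypoxia in DU145, against 6.92, 7.03 and 6.64 with solvent in hypoxia. The normoxia values were 6.11, 6.40 and 6.31 with vorinostat, against 6.75, 7.06 and 6.95 with solvent. Again no vorinostat array reached a solvent array, with a change of -0.70 ± 0.10 (SE; limma adjusted p = 7.72e-07).

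POLE, the catalytic subunit of epsilon, measured 7.11, 7.16 and 7.11 with vorinostat in hypoxia in DU145, against 7.75, 7.75 and 7.35 with solvent in hypoxia. On the normoxia arrays it stood at 6.84, 6.92 and 6.55 with vorinostat, against 7.98, 7.33 and 7.60 with solvent. The groups did not overlap, and the change was -0.68 ± 0.12 (SE; limma adjusted p = 1.44e-05). In 22Rv1 the same 3 genes changed by -0.79 (POLD1), -1.12 (POLD3) and -1.05 (POLE), and in PC-3 by -0.32, -0.35 and -0.39. POLD2, another accessory subunit of delta, was called lower in 22Rv1 at -0.27, and stood at -0.01 in DU145 and 0.10 in PC-3.

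POLE2, the accessory subunit of epsilon, measured 6.69, 6.50 and 6.91 with vorinostat in hypoxia in 22Rv1, against 8.37, 8.38 and 8.67 with solvent in hypoxia. Its levels in normoxia were 7.94, 8.18 and 7.87 with vorinostat, against 8.95, 9.00 and 9.06 with solvent. The groups were apart and the change was -1.39 ± 0.09 (SE; limma adjusted p = 4.73e-14), a 2.62-fold fall. In DU145 POLE2 stood at -0.15 ± 0.09 and was not called, while in PC-3 it fell by 0.47 ± 0.09 on the log2 scale (SE; limma adjusted p = 6.52e-05). POLE3, a histone-fold subunit of epsilon, measured 10.50, 10.55 and 10.57 with vorinostat in hypoxia in PC-3, against 10.96, 11.18 and 10.97 with solvent in hypoxia. Under normoxia the signal was 10.75, 10.97 and 10.81 with vorinostat, against 11.36, 11.42 and 11.41 with solvent. Within each oxygen level the groups were apart, and the change was -0.52 ± 0.07 (SE; limma adjusted p = 2.49e-07), beside -0.60 in 22Rv1 and -0.34 in DU145.

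LIG1, the ligase that seals the lagging strand fragments, had the largest fall of all members in 22Rv1. It measured 6.86, 6.79 and 6.57 with vorinostat in hypoxia, against 8.74, 8.77 and 8.81 with solvent in hypoxia. The arrays in normoxia read 7.38, 7.68 and 7.62 with vorinostat, against 9.04, 8.97 and 8.93 with solvent. The groups lay far apart, with a change of -1.73 ± 0.10 (SE; limma adjusted p = 1.79e-14), a 3.32-fold fall. Its promoter, printed above, carries the letters TTTCCCGC.

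In DU145 LIG1 measured 6.39, 6.39 and 5.87 with vorinostat in hypoxia, against 7.01, 7.07 and 6.88 with solvent in hypoxia. In normoxia it measured 6.15, 6.48 and 5.74 with vorinostat, against 7.22, 6.98 and 6.81 with solvent. The groups did not overlap, and the change was -0.83 ± 0.10 (SE; limma adjusted p = 7.11e-08). In PC-3 LIG1 measured 6.22, 6.52 and 6.15 with vorinostat in hypoxia, against 6.65, 6.92 and 6.71 with solvent in hypoxia. The PC-3 normoxia values were 6.45, 6.57 and 6.52 with vorinostat, against 7.16, 7.28 and 7.14 with solvent. These groups were also apart, with a change of -0.57 ± 0.10 (SE; limma adjusted p = 4.99e-05). FEN1, the flap nuclease that works before the ligase, was called lower in 22Rv1 (-1.17), DU145 (-0.21) and PC-3 (-0.38).

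The 3 subunits of the single-strand binding protein RPA went different ways. RPA2 was called lower in all 6 combinations, with changes of -0.74 in 22Rv1, -0.34 in DU145 and -0.27 in PC-3. RPA1, the large subunit, was called lower in 22Rv1 (-0.51) and PC-3 (-0.16) and stood at -0.05 in DU145. The PC-3 call of RPA1 lay close to the threshold (limma adjusted p = 0.0487). The other RPA1 probes stood at -0.08 and 0.00 in PC-3, and none of its probes was called there when tested over all detected probes. RPA3, the small subunit, was called higher in DU145 and PC-3 and stood at -0.04 ± 0.06 in 22Rv1 (SE).

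In DU145 RPA3 measured 12.49, 12.40 and 12.56 with vorinostat in hypoxia, against 11.74, 11.64 and 11.63 with solvent in hypoxia. The normoxia values were 12.39, 12.31 and 12.29 with vorinostat, against 11.95, 11.74 and 11.64 with solvent. Every vorinostat array lay above every solvent array, and the rise was 0.68 ± 0.06 (SE; limma adjusted p = 1.97e-10), or 1.61-fold. In PC-3 it measured 11.07, 11.19 and 11.08 with vorinostat in hypoxia, against 10.87, 11.02 and 11.00 with solvent in hypoxia. The PC-3 normoxia values were 11.16, 11.19 and 11.49 with vorinostat, against 11.08, 11.09 and 11.04 with solvent. The PC-3 rise was 0.18 ± 0.06 (SE; limma adjusted p = 0.0225) and lost its call without the third array with vorinostat in normoxia, at 0.13 with an adjusted p of 0.0987, and under other settings given in the closing part.

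Chromatin assembly factor 1 fell most in 22Rv1. CHAF1B measured 5.92, 5.46 and 6.19 there with vorinostat in hypoxia, against 8.05, 8.06 and 7.93 with solvent in hypoxia. On the normoxia arrays it stood at 7.22, 7.57 and 7.54 with vorinostat, against 8.67, 8.73 and 8.70 with solvent. All vorinostat arrays lay below all solvent arrays, with a change of -1.71 ± 0.10 (SE; limma adjusted p = 1.76e-14), a 3.26-fold fall. CHAF1B changed by -0.52 ± 0.10 in DU145 (SE; limma adjusted p = 8.20e-05) and by -0.25 ± 0.10 in PC-3, where it was not called (adjusted p = 0.0517). CHAF1A, the large subunit, was called lower in each line, by -1.11 in 22Rv1, -0.39 in DU145 and -0.31 in PC-3. In 22Rv1 with vorinostat in hypoxia its probe was not well above background, so the fall in hypoxia was at least 1.99-fold.

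TIMELESS, the fork protection factor, had the largest fall of all members in DU145 and in PC-3. In PC-3 it measured 7.65, 7.82 and 7.70 with vorinostat in hypoxia, against 9.11, 9.05 and 9.03 with solvent in hypoxia. Its levels in normoxia were 8.39, 8.50 and 8.40 with vorinostat, against 9.43, 9.51 and 9.68 with solvent. The groups were apart, and the change was -1.22 ± 0.06 (SE; limma adjusted p = 3.88e-16), a 2.33-fold fall.

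In DU145 TIMELESS measured 8.84, 8.65 and 8.61 with vorinostat in hypoxia, against 9.48, 9.51 and 9.47 with solvent in hypoxia. Under normoxia the signal was 8.94, 8.88 and 8.99 with vorinostat, against 9.83, 9.91 and 9.83 with solvent. No vorinostat array reached a solvent array, and the change was -0.86 ± 0.06 (SE; limma adjusted p = 2.48e-13). In 22Rv1 the values were 8.18, 8.44 and 8.34 with vorinostat in hypoxia, against 10.13, 10.15 and 10.22 with solvent in hypoxia. The 22Rv1 normoxia values were 9.25, 9.33 and 9.39 with vorinostat, against 10.71, 10.71 and 10.73 with solvent. The change in 22Rv1 was -1.62 ± 0.06 (SE; limma adjusted p = 1.26e-19). The promoter of TIMELESS printed above holds none of the E2F letters searched. Its partner TIPIN was called lower by -0.81 in 22Rv1, -0.35 in DU145 and -0.40 in PC-3, and WDHD1, which couples the helicase to polymerase alpha, by -1.03, -0.30 and -0.38. The DU145 call of TIPIN lay close to the threshold, and its probe was not called there when tested over all detected probes (limma adjusted p = 0.0541). In hypoxia the DU145 groups of TIPIN overlapped, at 8.01, 8.19 and 7.98 with vorinostat against 7.82, 8.41 and 8.21 with solvent. A second, dimmer WDHD1 probe, detected on 20 arrays, was called in no line.

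**Figure D4:**
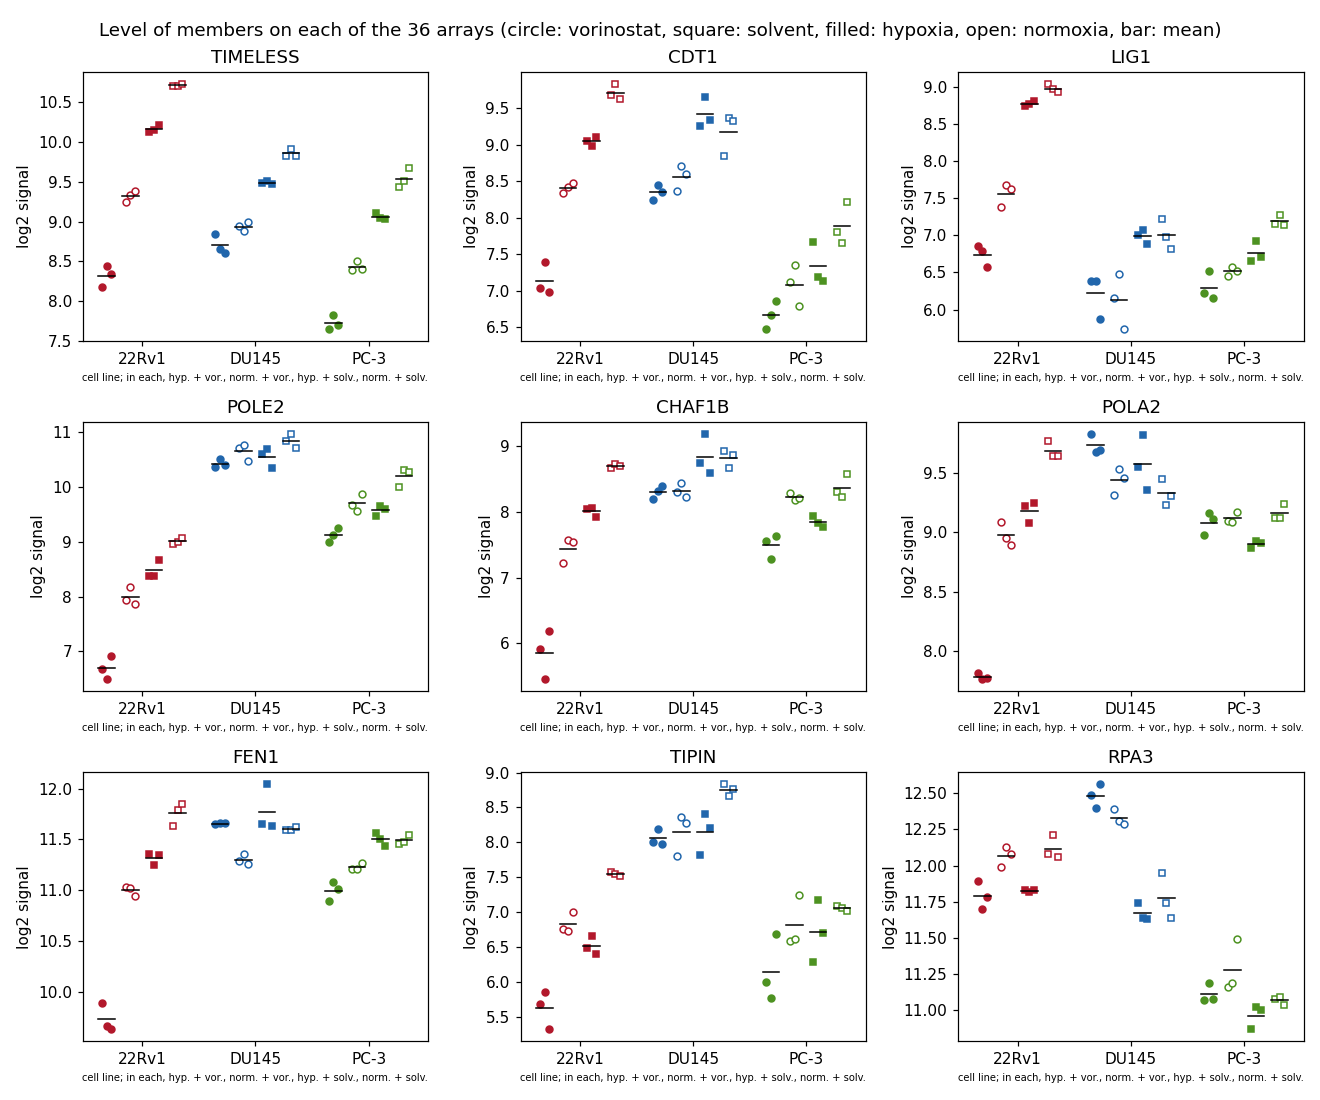
Log2 signal of 9 members on each of the 36 arrays, by line and, within a line from left to right, hypoxia with vorinostat, normoxia with vorinostat, hypoxia with solvent and normoxia with solvent (circles vorinostat, squares solvent, filled hypoxia, open normoxia, bars the mean of 3 arrays). TIMELESS is lower on the vorinostat arrays of every line, POLA2 on those of 22Rv1, and RPA3 is higher on those of DU145.

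The fall with vorinostat was larger in 22Rv1 than in the other lines for most members. The difference in log2 change, 22Rv1 minus PC-3, was called lower for 26 of 38 members and higher for 0, where 13.5% and 14.7% of all genes were, with a median of -0.51. For 22Rv1 minus DU145, 29 were called lower and 0 higher, where 21.2% and 18.2% of all genes were, with a median of -0.54. The largest differences from PC-3 were those of CHAF1B (-1.45 ± 0.15, SE; limma adjusted p = 4.41e-09), LIG1 (-1.16 ± 0.15; adjusted p = 3.84e-07) and POLA2 (-1.13 ± 0.10; adjusted p = 1.29e-10). The largest from DU145 were those of POLE2 (-1.24 ± 0.12, SE; limma adjusted p = 2.65e-09), POLA2 (-1.20 ± 0.10; adjusted p = 2.68e-11) and CHAF1B (-1.19 ± 0.15; adjusted p = 1.13e-07). The change was lower in 22Rv1 than in DU145 for 38 of 38 members and than in PC-3 for 37.

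Between DU145 and PC-3 fewer members differed. The difference, DU145 minus PC-3, was called higher for 6 members and lower for 0, where 17.7% and 13.3% of all genes were, with a median of 0.07. The 3 largest were DSCC1 (0.76 ± 0.13, SE; limma adjusted p = 3.86e-05), RPA3 (0.50 ± 0.09; adjusted p = 6.91e-05) and PRIM1 (0.39 ± 0.12; adjusted p = 0.0156). PRIM1 lost its call where the mean of its detected probes was used, at 0.33 with an adjusted p of 0.0542. The other 3 were TIMELESS (0.37), POLE2 (0.32) and ORC5 (0.27). Across the 38 members, the changes correlated at 0.79 between 22Rv1 and DU145, 0.68 between 22Rv1 and PC-3 and 0.68 between DU145 and PC-3, beside 0.45, 0.48 and 0.55 across all 12360 genes. Genes are not independent replicates, and these correlations are a description.

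**Figure D5:**
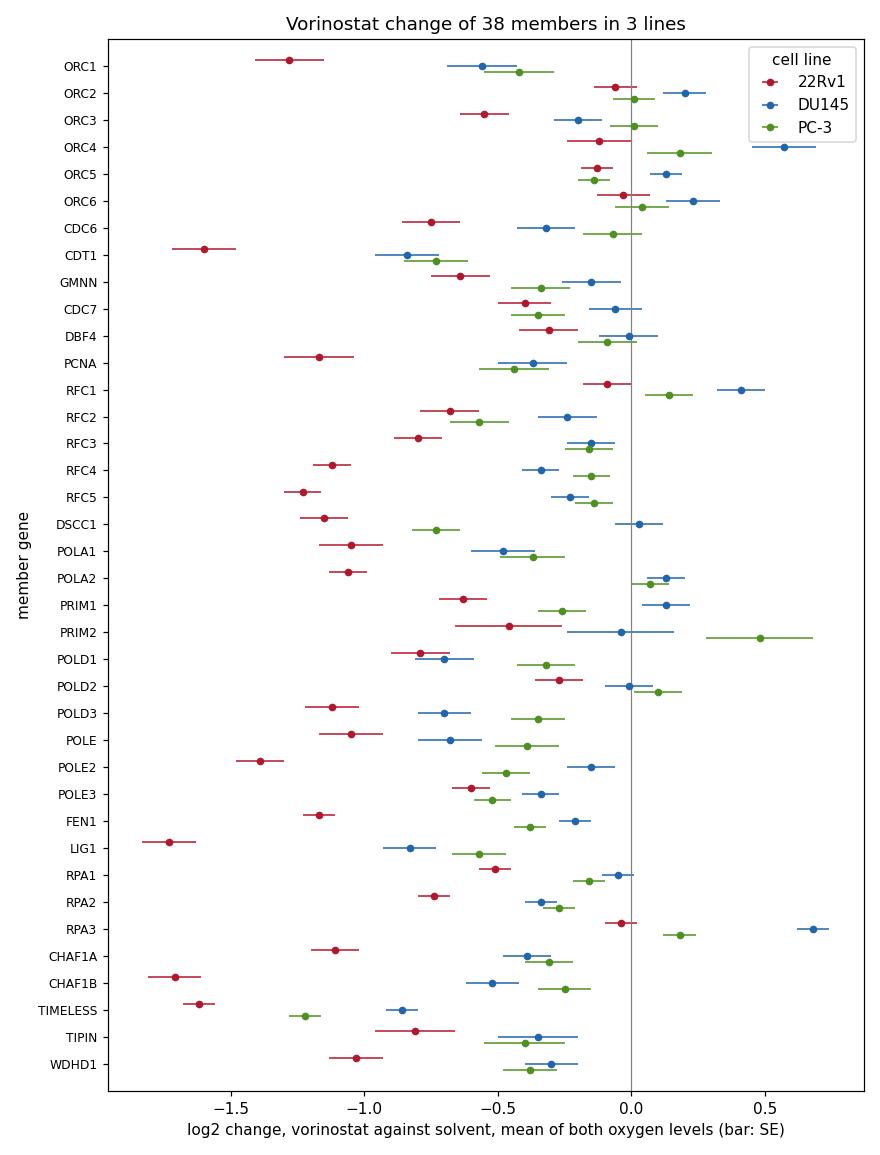
Log2 change with vorinostat against solvent, mean of both oxygen levels, of the 38 members in 22Rv1, DU145 and PC-3 (points; bars are the SE from the limma fit of 36 arrays). The 22Rv1 points lie left of the DU145 points for 38 of 38 members; the share of all genes in this order is not given.

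Hypoxia alone, on the solvent arrays, also lowered members, again most in 22Rv1. There 19 of 38 were called lower and 0 higher, where 10.3% and 9.89% of all genes were, with a median of -0.38. In PC-3, 9 were called lower and 0 higher, where 9.53% and 7.35% of all genes were, with a median of -0.18. In DU145, 6 were called lower and 1 higher, where 6.91% and 7.84% of all genes were, with a median of -0.05. The called falls of 22Rv1 include RFC2, RFC3, RFC4 and RFC5, both subunits of chromatin assembly factor 1, and TIMELESS and TIPIN. With median scaling the members called were 4 in DU145 in place of 7 and 5 in PC-3 in place of 9, and without the third normoxia solvent array of DU145 they were 4 there. For these settings, too, the shares of all genes called are not given here. These hypoxia comparisons and the vorinostat comparisons of a line share its solvent arrays.

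TIPIN had the largest fall in 22Rv1, at 6.49, 6.65 and 6.40 in hypoxia, against 7.58, 7.54 and 7.52 in normoxia, a change of -1.03 ± 0.21 (SE; limma adjusted p = 0.000519). RFC2 stood at 8.24, 8.42 and 8.37 in hypoxia, against 9.19, 9.28 and 9.25 in normoxia, a change of -0.90 ± 0.16 (SE; limma adjusted p = 0.000146). RFC3 stood at 8.08, 8.11 and 8.17 in hypoxia, against 8.79, 9.04 and 8.89 in normoxia, a change of -0.78 ± 0.13 (SE; limma adjusted p = 5.02e-05). None of these 3 genes had overlapping groups on the probe that stands for it. Another RFC3 probe also fell, at 7.93, 7.90 and 7.86 in hypoxia against 8.73, 8.88 and 8.57 in normoxia. The dimmest RFC3 probe, detected on 19 of 36 arrays, had overlapping groups. It stood at 6.98, 6.86 and 7.04 in hypoxia, against 6.93, 7.13 and 7.24 in normoxia.

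In DU145 the largest changes were those of TIPIN, RFC1 and POLE3. TIPIN stood at 7.82, 8.41 and 8.21 in hypoxia, against 8.83, 8.67 and 8.77 in normoxia, a change of -0.61 ± 0.21 (SE; limma adjusted p = 0.0438) that lost its call without any 1 of 5 of the 6 arrays, with adjusted p of 0.0724 to 0.224 and -0.45 without the first hypoxia array. RFC1 rose: it stood at 8.96, 9.21 and 8.76 in hypoxia, against 8.56, 8.25 and 8.46 in normoxia, a change of 0.55 ± 0.13 (SE; limma adjusted p = 0.0037). POLE3 stood at 11.64, 11.67 and 11.66 in hypoxia, against 12.05, 12.34 and 12.13 in normoxia, a change of -0.51 ± 0.10 (SE; limma adjusted p = 0.000306). The groups of each of the 3 genes were apart on the probe that stands for it. The second RFC1 probe stood at 7.05, 7.21 and 7.36 in hypoxia, against 7.12, 6.80 and 7.26 in normoxia. Its groups overlapped, so the rise of RFC1 with hypoxia rests on the brighter probe.

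In PC-3 the largest were POLE2, RFC3 and CDT1. POLE2 stood at 9.47, 9.65 and 9.59 in hypoxia, against 9.99, 10.30 and 10.26 in normoxia, a change of -0.62 ± 0.12 (SE; limma adjusted p = 0.000665). RFC3 stood at 8.14, 8.30 and 8.0 in hypoxia, against 8.86, 8.71 and 8.59 in normoxia, a change of -0.57 ± 0.13 (SE; limma adjusted p = 0.00229). Under the alternatives this change was as small as -0.27 and kept its call. Another RFC3 probe also fell, at 8.20, 8.40 and 8.15 in hypoxia against 8.58, 8.76 and 8.61 in normoxia. The dimmest RFC3 probe did not fall: it stood at 5.88, 5.61 and 5.80 in hypoxia, against 5.77, 5.17 and 5.83 in normoxia. CDT1 changed by -0.56 ± 0.17 (SE; limma adjusted p = 0.0182), with values printed above that overlap through the first hypoxia array, and lost its call without any 1 of 3 of the 6 arrays, at -0.39 with an adjusted p of 0.149 without the third normoxia array. CDT1 was also lower in hypoxia in 22Rv1 (-0.66) and stood at 0.24 in DU145, where it was not called.

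The vorinostat effect in hypoxia was compared with that in normoxia within each line. In 22Rv1 the effect was called more negative in hypoxia for 6 of 38 members and less negative for 0, where 0.728% of all genes were called in either direction. The 6 were CHAF1B (-0.90 ± 0.21, SE; limma adjusted p = 0.024), FEN1 (-0.83 ± 0.13; adjusted p = 0.000405), POLE2 (-0.77 ± 0.18; adjusted p = 0.024), POLA2 (-0.70), RFC4 (-0.68) and RFC5 (-0.66). FEN1 stood at 9.90, 9.67 and 9.64 with vorinostat in hypoxia, against 11.36, 11.25 and 11.35 with solvent in hypoxia. The arrays in normoxia read 11.03, 11.02 and 10.95 with vorinostat, against 11.63, 11.79 and 11.85 with solvent. The change of FEN1 with vorinostat was thus -1.58 in hypoxia and -0.76 in normoxia. The count was 3 when the 12 arrays of the line were fitted alone or when the second normoxia vorinostat array was left out, 10 with array weights, and CHAF1B and POLE2 lost their calls on the authors' processed values, at -0.30 and -0.40 with adjusted p of 0.648 and 0.332. The shares of all genes called under these alternatives are not given here.

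No member was called in this comparison in DU145 or in PC-3 by limma, where 0.728% and 0.0566% of all genes were. Some settings given in the closing part did call members in these lines. At an unadjusted p below 0.05 there were 3 members in DU145 and 7 in PC-3, beside 12 in 22Rv1. The share of all genes at that unadjusted threshold is not given here, so these counts are not read as particular to the members. The smallest adjusted p in DU145 was that of RFC4 (0.55, adjusted p = 0.0526), and in PC-3 that of DSCC1 (-0.74, adjusted p = 0.134). Set against normoxia with solvent, the group mean with both treatments was the lowest of the 4 groups for 35 of 38 members in 22Rv1, 14 in DU145 and 27 in PC-3. The share of all genes with this order is not given here, so these counts describe the members and are not read as particular to them. In 22Rv1 the median member stood at -1.26 with both treatments, -0.72 with vorinostat and -0.38 with hypoxia, and CHAF1B was the lowest, at -2.84.

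In normoxia with solvent the levels of the lines were compared as well. The level was higher in 22Rv1 than in PC-3 for 22 members and lower for 7, where 36.4% and 31.9% of all genes were, and higher in 22Rv1 than in DU145 for 16 and lower for 7, where 34.4% and 30.4% were. It was higher in DU145 than in PC-3 for 16 members and lower for 5, where 31.3% and 31.0% were. These level differences share their solvent arrays with the drug effects. Median scaling of the arrays moves the median of all genes to 0.14 for 22Rv1 against PC-3 and to 0.20 for 22Rv1 against DU145, so differences near those sizes depend on the scaling.

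CDT1 measured 9.68, 9.83 and 9.63 in 22Rv1, against 7.80, 7.65 and 8.22 in PC-3, a difference of 1.82 ± 0.17 (SE; limma adjusted p = 3.65e-11). LIG1 measured 9.04, 8.97 and 8.93 in 22Rv1, against 7.16, 7.28 and 7.14 in PC-3, a difference of 1.79 ± 0.15 (SE; limma adjusted p = 4.14e-12). POLE measured 8.27, 8.28 and 8.28 in 22Rv1, against 6.54, 7.30 and 6.65 in PC-3, a difference of 1.45 ± 0.17 (SE; limma adjusted p = 5.82e-09). All 3 genes were thus higher in 22Rv1 without overlap.

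Against DU145, LIG1 differed by 1.98 ± 0.15 (SE; limma adjusted p = 4.54e-13), with DU145 arrays at 7.22, 6.98 and 6.81. POLE2 was lower in 22Rv1, at 8.95, 9.00 and 9.06, against 10.82, 10.95 and 10.70 in DU145, a difference of -1.82 ± 0.12 (SE; limma adjusted p = 5.30e-14). RFC2 stood at 9.19, 9.28 and 9.25 in 22Rv1, against 7.77, 8.07 and 8.18 in DU145, a difference of 1.23 ± 0.16 (SE; limma adjusted p = 7.81e-08). None of the 3 overlapped. Between DU145 and PC-3, TIPIN stood at 8.83, 8.67 and 8.77 in DU145, against 7.09, 7.06 and 7.01 in PC-3, a difference of 1.70 ± 0.21 (SE; limma adjusted p = 2.23e-08). CDT1 differed by 1.28 ± 0.17 (SE; limma adjusted p = 6.75e-08) between these lines, from the values given above. PRIM2 stood at 6.71, 5.89 and 6.43 in DU145, against 4.69, 5.46 and 5.66 in PC-3, a difference of 1.08 ± 0.28 (SE; limma adjusted p = 0.00122), and was dim in both.

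The other genes of the replication machinery were read from lists chosen with earlier results of these data known. Their counts stand against the same vorinostat calls over all tested genes, which were 22.4% lower and 22.9% higher in 22Rv1, 24.7% and 27.9% in DU145, and 19.7% and 19.8% in PC-3. The replicative helicase, the MCM ring with CDC45 and GINS that unwinds the DNA, was called lower with vorinostat for 11 of 11 tested genes in 22Rv1, 10 in DU145 and 9 in PC-3, and higher for 0. In 22Rv1 these include MCM5 (-2.14 ± 0.14, SE; limma adjusted p = 2.11e-13), CDC45 (-1.95 ± 0.08; adjusted p = 1.10e-18), MCM2 (-1.87) and GINS2 (-1.68). The helicase list had a median of -1.46 in 22Rv1, -0.65 in DU145 and -0.35 in PC-3, beside -0.80, -0.22 and -0.29 for the members. In 22Rv1 its drug effect was called more negative in hypoxia for 8 of 11 genes, where 0.728% of all genes were called in either direction.

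Of 30 other tested replication factors, 17 were called lower and 3 higher in 22Rv1, 10 and 5 in DU145, and 17 and 2 in PC-3, with medians of -0.46, -0.16 and -0.29. POLD4, the smallest subunit of polymerase delta, rose in DU145 by 0.96 ± 0.10 (SE; limma adjusted p = 2.59e-09) and in PC-3 by 1.08 ± 0.10 (adjusted p = 8.03e-10), while POLD1 and POLD3 fell in both. UHRF1, which guides DNA methylation behind the fork, changed by -1.92 ± 0.13 in 22Rv1 (SE; limma adjusted p = 1.19e-13). Of 12 polymerases and partners that work outside the fork, 5 were called lower and 0 higher in 22Rv1, 3 and 4 in DU145, and 0 and 2 in PC-3. The DU145 counts are near the shares of all genes and show nothing particular to the list. MAD2L2, a subunit of polymerase zeta, was higher by 0.57 in DU145 and 0.31 in PC-3.

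Of 18 regulators of the E2F and RB pathway, 10 were called lower and 2 higher in 22Rv1, 7 and 4 in DU145, and 4 and 3 in PC-3. The PC-3 counts are near the shares of all genes. TFDP1, the dimer partner of E2F, changed by -0.95 ± 0.07 in DU145 (SE; limma adjusted p = 1.24e-12) and -0.86 ± 0.07 in PC-3 (adjusted p = 3.31e-11), and the repressor E2F7 by -1.59 ± 0.11 in 22Rv1 (adjusted p = 7.18e-13). Of 14 genes of G2 and mitosis, 13 were called lower and 0 higher in 22Rv1, 8 and 1 in DU145, and 7 and 0 in PC-3. Among them FOXM1, a driver of mitotic genes, stood at -1.23, -1.02 and -0.80 in these lines. In hypoxia with solvent in 22Rv1, 2 of these 14 were called lower, beside 9 of 11 helicase genes and 19 of 38 members, where 10.3% of all genes were. The count of the G2 and mitosis list is near that share and shows nothing particular to the list.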

How the data were processed

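RNA of 12 groups of 3 samples was hybridised to 36 Illumina bead arrays, 1 colour each. The non-normalized values that the authors deposited are the average bead signal of a probe, per the file headers, and are an intensity on the linear scale. Beside each stands a detection p-value, also per the file headers. The submitters' processing notes name BeadStudio 3.1.3.0. A second deposited table holds processed values, an intensity with medians of 110.8 to 110.9 on every array; any further step by the authors is not given in the sources used here, and they served as an alternative. Of 47323 probes, 30113 carry 1 gene symbol, 8 carry several and 17202 carry none; only those with 1 symbol were named.

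Signals were corrected and quantile normalized with neqc (offset of 16, background from the detection p-values) in limma 3.58.1 (R 4.3.3) and put on the log2 scale. Probes that passed a detection p of 0.01 on 3 or more arrays were kept (21376 probes), and a gene was represented by its brightest one. limma was fitted with 12 group means and 29.5 degrees of freedom after moderation, and p-values were adjusted by Benjamini-Hochberg over 12360 genes. The fitting code was tested on simulated data. No 2 arrays hold identical values (0 identical pairs). The number of arrays limits the precision.

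Every member was named once. Full values were given for the 6 largest called falls with vorinostat and each called rise in a line, for the 3 largest called changes in the other comparisons, and for at most 4 genes of each other list; values of further members were added after they were seen. The members and lists were chosen with earlier results of these data known. Alternatives were the authors' processed values, median scaling, cyclic loess, 2 other filters on dim probes, the mean of a gene's probes, array weights, a replicate block, fits of single lines and leaving out each array.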

Additional observations from a re-analysis of the deposited data

Results flagged for a closer look

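The change with vorinostat differed between lines by the test of the difference itself. It was called lower for 26 of 38 members in 22Rv1 minus PC-3 and for 29 in 22Rv1 minus DU145 (limma, adjusted p below 0.05). Of all tested genes, 13.5% and 21.2% were called lower in these comparisons. In DU145 minus PC-3 it was called higher for 6 members (15.8%), where 17.7% of all genes were. That last count is near the share of all genes and shows nothing particular to the members. In 22Rv1 minus PC-3 the log2 difference was -1.45 for CHAF1B, -1.16 for LIG1 and -1.13 for POLA2. In 22Rv1 minus DU145 it was -1.24 for POLE2, -1.20 for POLA2 and -1.19 for CHAF1B. In DU145 minus PC-3 it was 0.76 for DSCC1, 0.50 for RPA3 and 0.39 for PRIM1.

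The change with vorinostat in hypoxia differed from that in normoxia for 6 members in 22Rv1, with log2 differences of -0.90 for CHAF1B, -0.83 for FEN1 and -0.77 for POLE2. Of all tested genes, 0.728% were called there in either direction.

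With hypoxia on solvent arrays, every CDT1 array of 22Rv1 and PC-3 lay below the normoxia mean of its line and every one of DU145 above it, with log2 changes of -0.66 in 22Rv1, -0.56 in PC-3 and 0.24 in DU145. The difference between the lines was not tested.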

How the results depend on the processing

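Of the named results under each alternative, 1052 kept their direction and their side of the threshold, 43 kept their direction and lost their call, and 0 changed direction. Of the counts of called members, 382 stayed within 1.5 times the reported count and 17 did not. With median scaling the members called with vorinostat in DU145 were 12 in normoxia and 8 in hypoxia, and those called with hypoxia were 4 in DU145 and 5 in PC-3. With the arrays of a line fitted alone they were 6 for vorinostat in PC-3 in normoxia and 3 for the vorinostat effect in hypoxia minus that in normoxia in 22Rv1. That last comparison gave 10 members in 22Rv1 with array weights, and 1 member in DU145, in place of 0, with the authors' processed values, with detection asked on all 3 arrays of a group, or with array weights. Leaving out 1 array at a time, it gave 3 to 6 members in 22Rv1 and 0 to 1 in DU145, and hypoxia against normoxia gave 4 to 10 members in DU145. The counts for vorinostat over both oxygen levels ranged from 30 to 32 in 22Rv1, 22 to 26 in DU145 and 18 to 23 in PC-3 without 1 array. The cause of these shifts was not tested, beyond the fewer arrays that a left-out array or a single line brings. The shares of all genes called under each alternative are not given here, so the shifts are not read as particular to the members.

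The groups share replicate numbers, and whether the numbers pair the arrays was checked. The deviations of same-numbered arrays of a line correlated at -0.03 to 0.31 in DU145 (median 0.16), 0.02 to 0.47 in PC-3 (median 0.29) and -0.01 to 0.11 in 22Rv1 (median 0.05), and those of other arrays at medians of -0.09, -0.15 and -0.02. Since not every same-numbered pair was above 0.1, the numbers were not taken as pairs. As a hint from the data, 11 of 12 arrays in DU145, 12 in PC-3 and 11 in 22Rv1 correlated best with their own number. With the number as a replicate block, the vorinostat effect in hypoxia minus that in normoxia was called for 1 member in DU145 (RFC4, 0.55, adjusted p = 0.0407) and 2 in PC-3 (CDC7, -0.72, adjusted p = 0.0435, and DSCC1, -0.74, adjusted p = 0.0483), in place of 0 in each, and for 6 in 22Rv1.

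The named results that lost their call did so under these settings. ORC2 with vorinostat in DU145 did with median scaling (0.27, adjusted p = 0.0519), with array weights (0.16, adjusted p = 0.0759) and without any 1 of 4 arrays. RPA3 in PC-3 did with median scaling (0.16, adjusted p = 0.23), with array weights, with the line alone and without any 1 of 3 arrays. CHAF1B and POLE2 in hypoxia minus normoxia in 22Rv1 did on the authors' processed values, with the line alone and without any 1 of 7 arrays for CHAF1B and 6 for POLE2, and CHAF1B with cyclic loess (-0.80, adjusted p = 0.0591). TIPIN with hypoxia in DU145 did with median scaling (-0.65, adjusted p = 0.0948), cyclic loess, no filter on dim probes and without any 1 of 5 arrays. CDT1 with hypoxia in PC-3 did with the line alone (-0.56, adjusted p = 0.103) and without any 1 of 3 arrays. PRIM1 in the vorinostat effect of DU145 minus PC-3 did with the mean of its detected probes (0.33, limma adjusted p = 0.0542).

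Signal over background limits CDC6, detected on 11 of 36 arrays, DBF4 on 3 and ORC4 on 22. Of 12 members with several detected probes, 10 had the same vorinostat call from all probes in 22Rv1, 7 in DU145 and 7 in PC-3, and 0 had opposite calls.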
